A study of Mus musculus with 4 samples.

Results

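The 10 heat shock genes described here encode chaperones of the cytosol and of mitochondria: Hspa1a, Hspa1b, Hspa8, Hspb1, Hspb8, Hsph1, Dnajb1, Hsp90aa1, Hspd1 and Cryab. They were chosen by a measured value, the lower Hspa1b signal after endothelin-1 (ET-1) in FAK-/- cells, so that difference is given as a description with no test. All 26 probe sets that the platform annotation pairs with one of these genes alone are included, out of 34945 probe sets and 18193 genes with an annotation of that kind. The samples were FAK-/- and FAK+/+ mouse embryonic fibroblasts, from knockout and wild-type mice. FAK is focal adhesion kinase, a tyrosine kinase that signals from sites of adhesion to the matrix, while ET-1 is a vasoactive peptide with G protein-coupled receptors. All cells were used at passage 5 and, once at 50% confluence, spent 24 h in medium free of serum and a further 24 h with or without ET-1. The 4 groups were FAK-/- with ET-1, FAK-/- untreated, FAK+/+ with ET-1 and FAK+/+ untreated, and each was measured on 1 Affymetrix whole-genome mouse array. No group has a replicate, so differences between 2 arrays are given as values with no test. All values are RMA values on the log2 scale, in which a difference of 1 is 2-fold, and the level filter is the median of all values (8.90).

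Heat shock proteins bind unfolded or partly folded proteins and help them to fold, to stay soluble or to be degraded. Hsp70 proteins (Hspa1a, Hspa1b and Hspa8) hold their clients in a cycle of ATP binding that is driven by J-domain partners such as Dnajb1 and by nucleotide exchange factors such as Hsph1. Small heat shock proteins (Hspb1, Hspb8 and Cryab) bind clients without ATP, Hsp90aa1 acts late on kinases and receptors, and Hspd1 forms the folding chamber of mitochondria. Many of these genes are induced through heat shock factor 1 (Hsf1), which binds heat shock elements, inverted repeats of a short GAA unit in their promoters. Hspa8 is the constitutive Hsp70, whereas Hspa1a and Hspa1b are the stress-inducible pair.

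Promoter sequences were available for 7 of the 10 genes in RefSeq (GRCm38.p6), in 10 windows that run from 250 bases before to 30 bases after an annotated start. Some are shown so that the elements of the genes far lower in FAK-/- cells can be read beside those of Hspd1 and Hsph1, which differed by less than 2-fold. Hspd1 and Hsph1 are the genes with a run of 3 units, so their windows do not stand for all members that differed little. Capitals mark matches to a pair of heat shock units (GAANNTTC or TTCNNGAA, read on both strands) or to a run of 3 units (GAANNTTCNNGAA), whose matches overlap those of the pair motifs. The windows printed are Hspa1b (chr17:34959209-34959488, minus strand), Hspa1a (chr17:34972127-34972406, minus strand), Hspb8 (chr5:116422835-116423114, minus strand), Hspd1 (chr1:55087903-55088182, minus strand) and Hsph1 (chr5:149636286-149636565, minus strand).
Hspa1b: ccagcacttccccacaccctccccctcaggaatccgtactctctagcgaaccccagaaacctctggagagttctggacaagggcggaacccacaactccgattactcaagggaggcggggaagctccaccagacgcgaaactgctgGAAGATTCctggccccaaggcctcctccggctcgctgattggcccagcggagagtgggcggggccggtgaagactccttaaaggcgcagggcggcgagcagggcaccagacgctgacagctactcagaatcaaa
Hspa1a: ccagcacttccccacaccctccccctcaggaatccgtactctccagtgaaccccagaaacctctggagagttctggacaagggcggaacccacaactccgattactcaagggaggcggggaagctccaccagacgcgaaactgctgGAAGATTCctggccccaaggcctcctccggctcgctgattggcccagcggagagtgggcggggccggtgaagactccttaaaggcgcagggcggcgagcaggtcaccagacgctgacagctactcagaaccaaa
Hspb8: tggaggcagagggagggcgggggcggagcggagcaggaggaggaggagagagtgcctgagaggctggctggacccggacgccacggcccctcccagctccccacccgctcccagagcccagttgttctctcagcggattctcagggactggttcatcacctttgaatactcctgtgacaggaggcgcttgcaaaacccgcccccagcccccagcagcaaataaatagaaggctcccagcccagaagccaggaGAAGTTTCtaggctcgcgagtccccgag
Hspd1: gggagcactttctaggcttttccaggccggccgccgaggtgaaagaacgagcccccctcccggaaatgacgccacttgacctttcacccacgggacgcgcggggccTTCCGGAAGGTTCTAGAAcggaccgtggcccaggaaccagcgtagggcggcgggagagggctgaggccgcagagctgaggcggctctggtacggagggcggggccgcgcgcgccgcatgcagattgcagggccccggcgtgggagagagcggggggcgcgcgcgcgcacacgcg
Hsph1: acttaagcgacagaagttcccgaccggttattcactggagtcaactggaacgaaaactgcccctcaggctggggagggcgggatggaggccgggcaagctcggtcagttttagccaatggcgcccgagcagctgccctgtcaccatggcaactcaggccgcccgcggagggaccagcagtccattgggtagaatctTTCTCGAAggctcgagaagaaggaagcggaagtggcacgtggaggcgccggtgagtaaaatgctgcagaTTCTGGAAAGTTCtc

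A pair motif was found in at least 1 window of 6 of the 7 genes with a window, and in 14.2% of all 32851 windows in the table. The run of 3 units was found in at least 1 window of 2 of the 7 genes, Hspd1 and Hsph1, and in 0.563% of all windows. These counts are by gene and the shares are by single window. A gene with several windows has more chances of a match, so the counts and shares are not directly comparable. Hspa1b, Hspa1a and Hspb8 each had 1 match to a pair motif and 0 to the run of 3 units. The match of Hspa1b and that of Hspa1a began 104 bases before the start, and that of Hspb8 lay just after its start. The run of Hsph1 also lay after its start. Among the windows not printed, those of Dnajb1 and the other Hspd1 window had 0 matches. The other Hsph1 window had 1 pair match and that of Hspb1 had 2, with 0 runs of 3 units in either. The windows of Hspa1a and Hspa1b were identical at 276 of 280 aligned positions (98.6%). A match is a description of the letters and not evidence of binding.

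The cultures and arrays differed in ways that touch the values below. Of 14 fibroblast marker genes, 10 were above the level filter in ET-1-treated FAK-/- cells and 12 in each of the other 3 arrays, and the log2 of their summed level was 16.49 and 16.67 in FAK-/- cells with and without ET-1 and 17.49 and 17.38 in FAK+/+ cells. Such a sum follows the brightest genes. Of the 12 markers tested, 7 were at least 2-fold lower in untreated FAK-/- cells (4.59% of all genes) and 8 after ET-1 (6.53%). Their median genotype difference was -1.59 untreated and -1.85 after ET-1, with Thy1 lowest at -4.07 and -6.62. Dcn was the 1 marker at least 2-fold higher (1.83 and 1.87). The log2 of the summed level of 8 epithelial markers was 14.17 and 14.56 in FAK-/- cells with and without ET-1 and 13.16 and 13.40 in FAK+/+ cells. For 5 mesothelial markers it was 15.70 and 15.85 in FAK-/- cells with and without ET-1 and 12.96 and 13.80 in FAK+/+ cells. Krt19, which is in both the epithelial and the mesothelial list, was lower in FAK-/- cells (-2.56 untreated and -3.41 after ET-1). Of 6 endothelial markers 1 was above the filter in every array, of 6 macrophage markers 3, and of 8 muscle markers 5. The 3' probe set of Gapdh exceeded its 5' probe set by 3.79 in the ET-1-treated FAK+/+ array, against 0.85 to 0.90 in the other 3 arrays, a sign of weaker signal toward 5' ends in that array. Hybridisation controls had a median difference of -0.34 (9 probe sets) between the ET-1-treated and the untreated FAK-/- array, and of -0.38 (-0.51 to -0.19) between the FAK-/- and the FAK+/+ array after ET-1. The genotype labels were not checked against FAK itself, whose gene is not analysed here.

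Hspa1b was far lower in FAK-/- cells than in FAK+/+ cells in both treatment states, and all 3 of its probe sets gave that direction. The probe set 1452318_a_at read 6.55 in ET-1-treated and 9.90 in untreated FAK-/- cells, against 13.69 in ET-1-treated and 13.54 in untreated FAK+/+ cells. The probe set 1427127_x_at read 6.38 and 8.97 in the same FAK-/- arrays, against 13.35 and 13.16 in the FAK+/+ arrays. The probe set 1427126_at read 6.0 and 8.33 in the FAK-/- arrays, against 12.87 and 12.84 in the FAK+/+ arrays. The FAK-/- values lay below both FAK+/+ values for every probe set, and the ET-1-treated FAK-/- value was the lowest of the 4 arrays each time. Such an order was not counted over all genes.

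In untreated cells Hspa1b was 12.5-fold lower in FAK-/- by its brightest probe set, and 18.3-fold and 22.8-fold lower by the other probe sets. After ET-1 it was 141-fold lower by the brightest probe set and 126-fold and 116-fold lower by the others, beside the hybridisation control median of -0.38 (log2) between the same arrays. Hspa1b thereby ranked 32 from the lowest of 12289 genes in untreated cells and 1 from the lowest after ET-1. Averaged over treatment, the FAK-/- minus FAK+/+ difference of Hspa1b was -5.39 on the log2 scale. It rests on the arrays whose values chose the genes, so it is given with no test.

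All 3 probe sets read below the level filter in the ET-1-treated FAK-/- array, and 1427126_at did so in the untreated FAK-/- array too. The folds that rest on these readings, which are all those after ET-1, those of ET-1 in FAK-/- cells and the 22.8-fold value, are imprecise. In bulk samples, fewer cells that express a gene and less RNA per cell cannot be told apart. The summed fibroblast, epithelial and mesothelial markers given above also differed between genotypes, and their part in the genotype differences of Hspa1b, and of Hspa1a and Hspb8 below, was not tested.

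The ET-1 difference of Hspa1b was large in FAK-/- cells and close to 0 in FAK+/+ cells. ET-1-treated minus untreated FAK-/- cells gave -3.35, -2.59 and -2.33 on the log2 scale by the 3 probe sets, which is 10.2-fold, 6.03-fold and 5.03-fold lower. The same differences in FAK+/+ cells were 0.14, 0.19 and 0.03, so the FAK+/+ values with and without ET-1 lay within 1.14-fold of each other. By its brightest probe set Hspa1b had the lowest ET-1 difference of 12289 genes in FAK-/- cells, in which 0.277% were at least 2-fold lower. These values describe the contrast that chose the genes. The hybridisation control difference of -0.34 between the same 2 FAK-/- arrays stands beside them.

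Hspa1a, the neighbouring copy of Hspa1b on chromosome 17, has 1 probe set, 1452388_at, and it stayed below the level filter in all 4 arrays. It read 6.52 in ET-1-treated and 6.40 in untreated FAK-/- cells, against 8.83 in ET-1-treated and 7.77 in untreated FAK+/+ cells. Both FAK-/- values lay below both FAK+/+ values, by 2.58-fold without ET-1 and 4.95-fold with it. As for Hspa1b, the share of all genes in such an order was not counted. ET-1-treated FAK+/+ cells read 2.07-fold above untreated FAK+/+ cells, and ET-1-treated FAK-/- cells 1.08-fold above untreated ones. The transcripts of Hspa1a and Hspa1b are near-identical, so probe sets named for one may also bind RNA of the other and the division between both genes is uncertain.

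**Figure D1:**
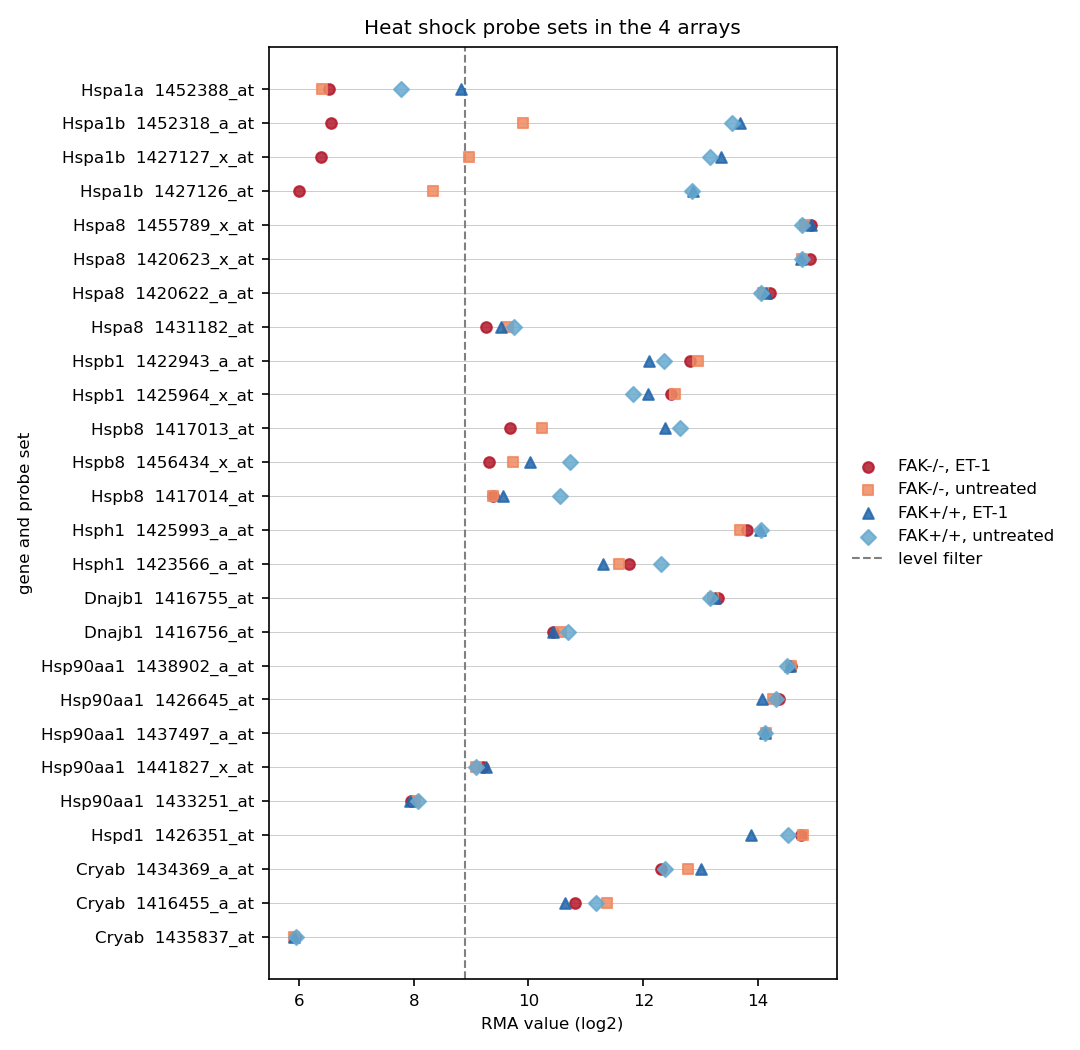
RMA values (log2, horizontal axis) of all 26 heat shock probe sets, 1 row each, with 1 symbol per array and the level filter of 8.90 as a dashed line. The Hspa1b rows are spread from 6.0 to 13.69 with both FAK-/- arrays on the left, while the 4 symbols of most Hspa8, Dnajb1 and Hsp90aa1 rows nearly coincide.

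The genes next to the Hspa1 pair on chromosome 17 did not share the size of its difference. The 5 protein-coding genes on either side, in the RefSeq order, were chosen after the values of Hspa1b had been seen. Of these 10 neighbours 8 passed the level filter, and their FAK-/- minus FAK+/+ differences lay between -1.08 and 0.31 in untreated cells and between -0.34 and 0.94 after ET-1. D17H6S56E-5 was the 1 neighbour at 2-fold or more in untreated cells (-1.08). The testis-associated Hsp70 gene Hspa1l, which lies in the same cluster, stayed below the filter at 6.43 to 6.54 in the 4 arrays.

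The constitutive Hsp70 gene Hspa8 had similar readings in the 4 arrays by its 3 bright probe sets, which lie near the top of the arrays' range (highest value 15.24), where differences may be compressed. Its brightest probe set read 14.92 in ET-1-treated and 14.81 in untreated FAK-/- cells, against 14.92 in ET-1-treated and 14.76 in untreated FAK+/+ cells. Over its 4 probe sets the FAK-/- minus FAK+/+ difference was between -0.09 and 0.05 in untreated cells and between -0.27 and 0.15 after ET-1. The dimmest probe set, 1431182_at, gave the -0.27, and its ET-1 difference was -0.39 in FAK-/- cells and -0.22 in FAK+/+ cells. By limma, an additive fit to all 4 arrays in which only the interaction of genotype with treatment is left to measure error, the genotype difference of Hspa8 was 0.02 ± 0.07 (SE, adjusted p = 0.868).

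The partners of the Hsp70 cycle also differed little. The brightest Dnajb1 probe set, for a J-domain protein that delivers clients to Hsp70, read 13.30 in ET-1-treated and 13.22 in untreated FAK-/- cells, against 13.26 in ET-1-treated and 13.16 in untreated FAK+/+ cells. Its genotype difference was 0.05 ± 0.14 by limma (SE, adjusted p = 0.841). Hsph1, the Hsp110 exchange factor, read 13.81 in ET-1-treated and 13.68 in untreated FAK-/- cells by its brightest probe set, against 14.03 and 14.05 in FAK+/+ cells with and without ET-1, a limma difference of -0.29 ± 0.11 (SE, adjusted p = 0.189). Its other probe set, 1423566_a_at, read 11.75 in ET-1-treated and 11.57 in untreated FAK-/- cells, against 11.30 in ET-1-treated and 12.31 in untreated FAK+/+ cells. That probe set was 2.01-fold lower after ET-1 in FAK+/+ cells, whereas the brightest differed by -0.03. The lower value falls in the array with the wide 3' to 5' gap, whose part in it was not tested.

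Hspb8, a small heat shock protein that works with the co-chaperone Bag3 in selective autophagy, was the other gene far below FAK+/+ cells. Its brightest probe set, 1417013_at, read 9.68 in ET-1-treated and 10.23 in untreated FAK-/- cells, against 12.38 in ET-1-treated and 12.63 in untreated FAK+/+ cells. The FAK-/- arrays were lower by 5.30-fold without ET-1 and by 6.49-fold with it. The groups did not overlap, which also held for other members, among them Hspb1 and Hspd1. The share of all genes without overlap was not counted. By limma Hspb8 fell by 2.55 ± 0.16 (SE, adjusted p = 0.00653) in FAK-/- cells, and the adjusted p was 8.95e-05 to 0.0146 under the alternatives. The mean of its 3 probe sets gave smaller differences of -1.52 untreated and -1.20 after ET-1.

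The other Hspb8 probe sets gave smaller genotype differences, and 1417014_at set the untreated FAK+/+ array apart. The probe set 1417014_at read 9.38 in ET-1-treated and 9.39 in untreated FAK-/- cells, against 9.55 in ET-1-treated and 10.55 in untreated FAK+/+ cells. The probe set 1456434_x_at read 9.31 and 9.73 in these FAK-/- arrays, against 10.03 and 10.73 in the FAK+/+ arrays. Both were lower in FAK-/- cells in each treatment state, by 2.24-fold and 2.00-fold untreated and by 1.13-fold and 1.65-fold after ET-1. After ET-1 in FAK+/+ cells the 3 probe sets differed by -0.25 (1417013_at), -0.70 (1456434_x_at) and -1.0 (1417014_at), in the array with the wide 3' to 5' gap, whose part was not tested.

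Hspb1, the small heat shock protein linked to actin dynamics, was higher in FAK-/- cells but below 2-fold. The probe set 1422943_a_at read 12.81 in ET-1-treated and 12.96 in untreated FAK-/- cells, against 12.11 in ET-1-treated and 12.35 in untreated FAK+/+ cells. The probe set 1425964_x_at read 12.48 and 12.55 in the FAK-/- arrays, against 12.08 and 11.81 in the FAK+/+ arrays. Both FAK-/- values exceeded both FAK+/+ values for each probe set, and the limma difference of 0.66 ± 0.16 (SE) had an adjusted p of 0.0808. How many of all genes show such an order was not counted, so it is only a description.

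Cryab, which encodes alpha-B crystallin, a small heat shock protein abundant in lens and muscle, gave different answers by probe set. The brightest, 1434369_a_at, read 12.31 in ET-1-treated and 12.77 in untreated FAK-/- cells, against 13.01 in ET-1-treated and 12.37 in untreated FAK+/+ cells, so the groups overlapped. The probe set 1416455_a_at read 10.82 and 11.36 in FAK-/- cells with and without ET-1, against 10.63 and 11.18 in FAK+/+ cells. The ET-1 difference of 1434369_a_at was -0.47 in FAK-/- cells and 0.64 in FAK+/+ cells, while that of 1416455_a_at was -0.55 in both. The remaining probe set read 5.92 to 5.94 in all 4 arrays, below the level filter. The limma genotype difference was -0.15 ± 0.32 (SE, adjusted p = 0.813).

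**Figure D2:**
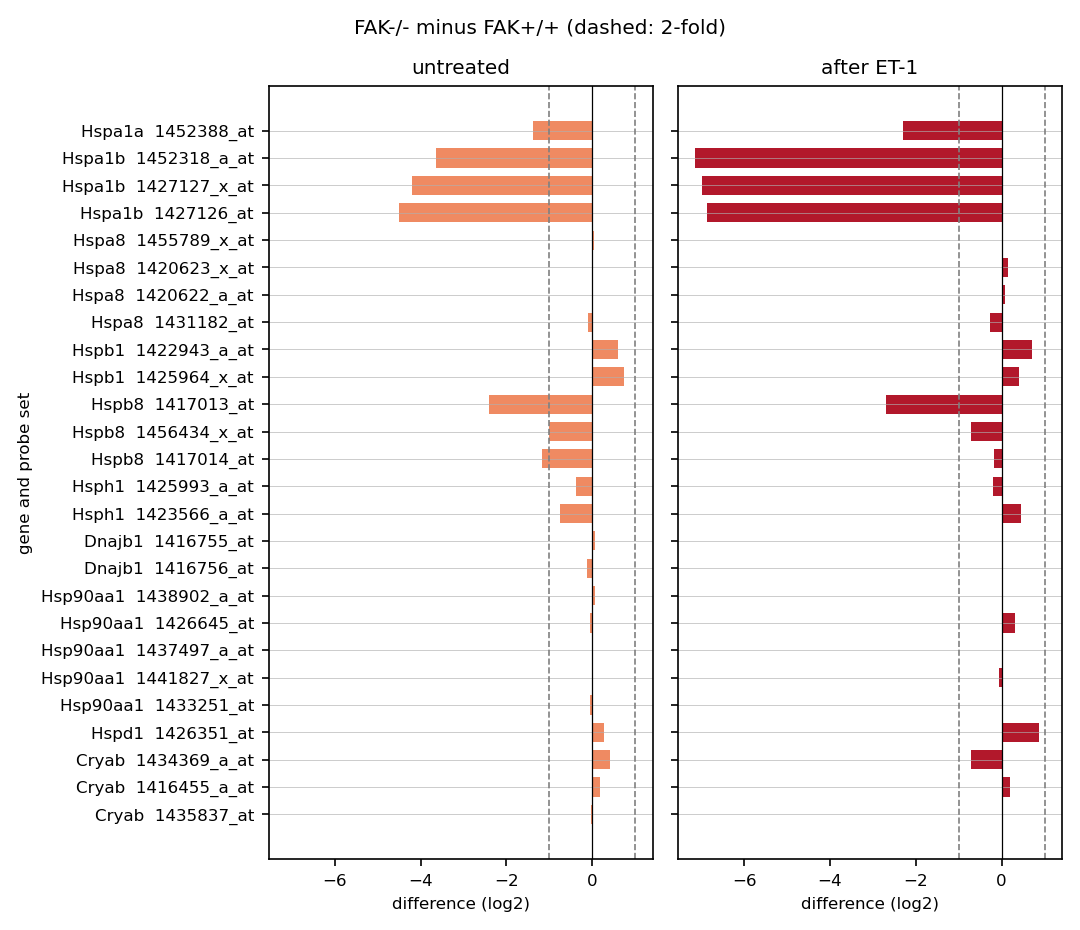
Bars show FAK-/- minus FAK+/+ differences (log2) of each heat shock probe set, in untreated cells on the left and after ET-1 on the right, with 2-fold as dashed lines. The Hspa1b bars reach -4.51 untreated and -7.13 after ET-1, the brightest Hspb8 probe set reaches -2.40 and -2.70, and no bar reaches 2-fold to the right.

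Hsp90aa1, the inducible cytosolic Hsp90, read alike in the 4 arrays by 4 of its 5 probe sets, with the bright ones near the top of the range. The brightest read 14.57 in ET-1-treated and 14.57 in untreated FAK-/- cells, against 14.56 in ET-1-treated and 14.51 in untreated FAK+/+ cells, a limma difference of 0.03 ± 0.08 (SE, adjusted p = 0.841). The widest genotype difference of its probe sets was 0.30 after ET-1, for 1426645_at, and its ET-1 difference in FAK+/+ cells was -0.25.

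Hspd1, the mitochondrial Hsp60, has 1 probe set. It read 14.74 in ET-1-treated and 14.78 in untreated FAK-/- cells, against 13.87 in ET-1-treated and 14.51 in untreated FAK+/+ cells. Both FAK-/- values were above both FAK+/+ values, by 1.21-fold untreated and 1.83-fold after ET-1. That order is a description, as its share among all genes was not counted. The limma difference was 0.57 ± 0.17 (SE, adjusted p = 0.119). The lowest value was in the array with the wide 3' to 5' gap. Hspe1, the Hsp10 lid of the same chamber, differed by 0.37 untreated and 0.13 after ET-1, and Hspa9, the mitochondrial Hsp70, by -0.07 and -0.06.

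Across the genes, 9 of the 10 passed the level filter and Hspa1a did not. In untreated cells 2 of these 9, Hspa1b and Hspb8, were at least 2-fold lower in FAK-/-, against 4.59% of 12289 genes, and 0 were at least 2-fold higher, against 4.78%. After ET-1 the same 2 were at least 2-fold lower (6.53% of all genes) and 0 higher (5.61%). The median genotype difference of the 9 genes was 0.06 untreated and -0.00 after ET-1, against 0.02 and -0.03 over all genes. The other 7 genes lay between -0.37 and 0.61 untreated and between -0.71 and 0.87 after ET-1. By probe set, 6 of 26 were at least 2-fold lower in untreated FAK-/- cells, against 3.06% of 34945 probe sets, and 5 were so after ET-1, against 4.22%. By limma, leaving out Hspa1b, 1 of the other 8 genes fell at an adjusted p under 0.05 (Hspb8) and 0 rose, against 7.03% and 6.59% of all genes. The 9 genes are not independent of the choice that named them.

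After ET-1 in FAK+/+ cells, the comparison that shares no array with the one that chose the genes, 0 of 9 genes reached 2-fold, against 1.95% of all genes. Their median was 0.05 (0.05 over all genes), with Hspd1 lowest at -0.64 and Cryab highest at 0.64. By probe set, 1 of 26 was at least 2-fold higher (Hspa1a, against 0.607% of 34945) and 1 at least 2-fold lower (Hsph1, against 1.19%). In FAK-/- cells 1 of 9 genes, Hspa1b, was at least 2-fold lower after ET-1 (0.277% of all genes), as were 3 of 26 probe sets, all of Hspa1b (0.163% of all probe sets). These counts restate the choice, and the other genes lay between -0.55 (Hspb8) and 0.13. The median of all 9, Hspa1b included, was -0.04, against -0.02 over all genes. The difference of the ET-1 differences, FAK-/- minus FAK+/+, was -3.49 for Hspa1b and -1.11 for Cryab by the brightest probe sets, and 1.31% of all genes were at least 2-fold lower on that measure.

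**Figure D3:**
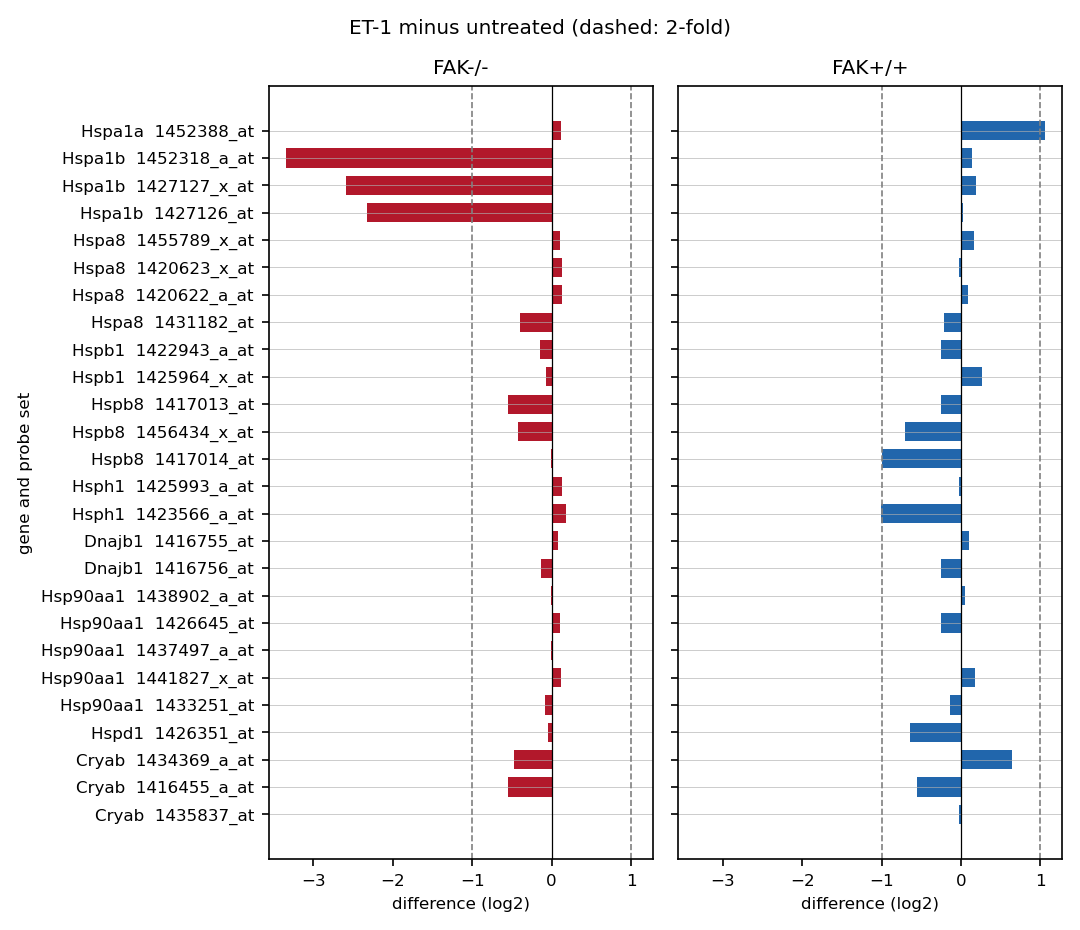
ET-1 minus untreated differences (log2) of each heat shock probe set in FAK-/- cells on the left and FAK+/+ cells on the right, with 2-fold as dashed lines. Hspa1b reaches -3.35, -2.59 and -2.33 in FAK-/- cells and stays between 0.03 and 0.19 in FAK+/+ cells.

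By the brightest probe sets no other chaperone gene tested differed as much between genotypes as Hspa1b or Hspb8. Several differed more than the remaining heat shock genes. By the mean of its 3 probe sets Hspb8 differed by -1.52 untreated and -1.20 after ET-1. That is less than Hspb6 by its brightest probe set (-1.71 and -1.89). Lists of other Hsp70 and Hsp110, Hsp90, small heat shock, J-domain, co-chaperone, heat shock factor, mitochondrial and TRiC chaperonin genes held 79 genes, of which 67 were tested. Their median FAK-/- minus FAK+/+ difference was -0.00 untreated and -0.06 after ET-1. In untreated cells 3 of the 67 were at least 2-fold lower in FAK-/- (4.48%, against 4.59% of all genes) and 0 higher (4.78% of all genes). After ET-1 6 were lower and 3 higher, 13.4% together, against 6.53% lower and 5.61% higher of all genes. The 3 higher genes, Dnajc9, Fkbp4 and Cdc37, each read lowest in ET-1-treated FAK+/+ cells, the array with the wide 3' to 5' gap. Of the 6 lower genes, Hspa13, Hspb11 and Trap1 were below 2-fold untreated (-0.48, -0.66 and -0.77). Each read highest in that same array, at 12.96, 11.78 and 12.13, against 12.38, 11.25 and 12.12 in untreated FAK+/+ cells. The part of that array in these counts was not tested. By limma 4 of the 67 fell (5.97%, against 7.03% of all genes) and 0 rose. The 4 include Dnaja4, which passed the level filter only through its FAK+/+ readings. These 4 were Hspb6, a small heat shock protein of muscle (-1.80 ± 0.15, adjusted p = 0.00904), Hspa4l, an Hsp110 relative (-1.49 ± 0.14, adjusted p = 0.0107), the J-domain gene Dnaja4 (-1.17 ± 0.09, adjusted p = 0.00835) and Trap1, the mitochondrial Hsp90 (-0.96 ± 0.19, adjusted p = 0.0493), with SE after each difference.

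Hspb6 read 10.27 in ET-1-treated and 10.39 in untreated FAK-/- cells, against 12.15 in ET-1-treated and 12.10 in untreated FAK+/+ cells. Hspa4l read 10.20 and 9.96 in the FAK-/- arrays, against 11.57 and 11.57 in the FAK+/+ arrays. Dnaja4 read 8.56 and 8.66 in the FAK-/- arrays, against 9.77 and 9.80 in the FAK+/+ arrays. For these 3 genes the FAK-/- values lay below both FAK+/+ values in each treatment state. The genes were named because limma called them lower in FAK-/- cells on the same arrays, so this order restates that choice. The share of all genes without overlap between genotypes was not counted. The ET-1 differences of Hspb6, Hspa4l and Dnaja4 lay between -0.13 and 0.24 in both genotypes. Trap1 read 10.97 in ET-1-treated and 11.35 in untreated FAK-/- cells, against 12.13 in ET-1-treated and 12.12 in untreated FAK+/+ cells.

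Of 17 co-chaperone genes tested 0 passed limma, against 7.03% lower and 6.59% higher of all genes. In untreated cells 0 were at 2-fold (4.59% lower and 4.78% higher of all genes), and after ET-1 2 were at least 2-fold higher in FAK-/- cells (5.61% of all genes), Fkbp4 (1.08) and Cdc37 (1.01). Their median genotype difference was 0.16 untreated and 0.17 after ET-1. After ET-1 in FAK+/+ cells Cdc37, which loads kinases onto Hsp90, differed by -1.07 and Bag3, the partner of Hspb8, by -0.76, while in FAK-/- cells the differences were -0.00 and 0.05. Bag3 read 12.00 in ET-1-treated and 11.95 in untreated FAK-/- cells, against 11.28 in ET-1-treated and 12.04 in untreated FAK+/+ cells. The low values of Cdc37 and Bag3 were in the array with the wide 3' to 5' gap, whose part was not tested. So was that of Fkbp4, which read 12.11 there and 12.80 in untreated FAK+/+ cells.

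In untreated cells the 8 subunits of the TRiC chaperonin, which folds actin and tubulin, lay between -0.17 and 0.17. After ET-1 they lay between -0.40 and 0.13. The 24 proteasome subunits lay between -0.22 and 0.45 untreated and between -0.41 and 0.51 after ET-1. Of each list 0 passed limma, against 7.03% lower and 6.59% higher of all genes. Of 19 endoplasmic reticulum chaperone and stress genes 1 rose by limma, Sdf2l1 (1.14 ± 0.18, adjusted p = 0.0327), and 0 fell, against 6.59% and 7.03% of all genes. After ET-1 Sdf2l1 (1.46) and Pdia4 (1.01) were the 2 of the 19 at least 2-fold higher in FAK-/- cells (5.61% of all genes). Both read lowest in the array with the wide 3' to 5' gap, whose part was not tested. Pdia4 read 9.50 there, against 10.51 in untreated FAK+/+ cells. Hspa5, the resident Hsp70 of that compartment, differed by 0.29 untreated and 0.02 after ET-1. Among the heat shock factor genes, Hsbp1, a binding protein of Hsf1, differed by 0.06 untreated and 0.01 after ET-1. Hsf2 read 8.46 to 8.79, below the level filter, and Hsf1 and Hsp90ab1 were not analysed here.

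**Figure D4:**
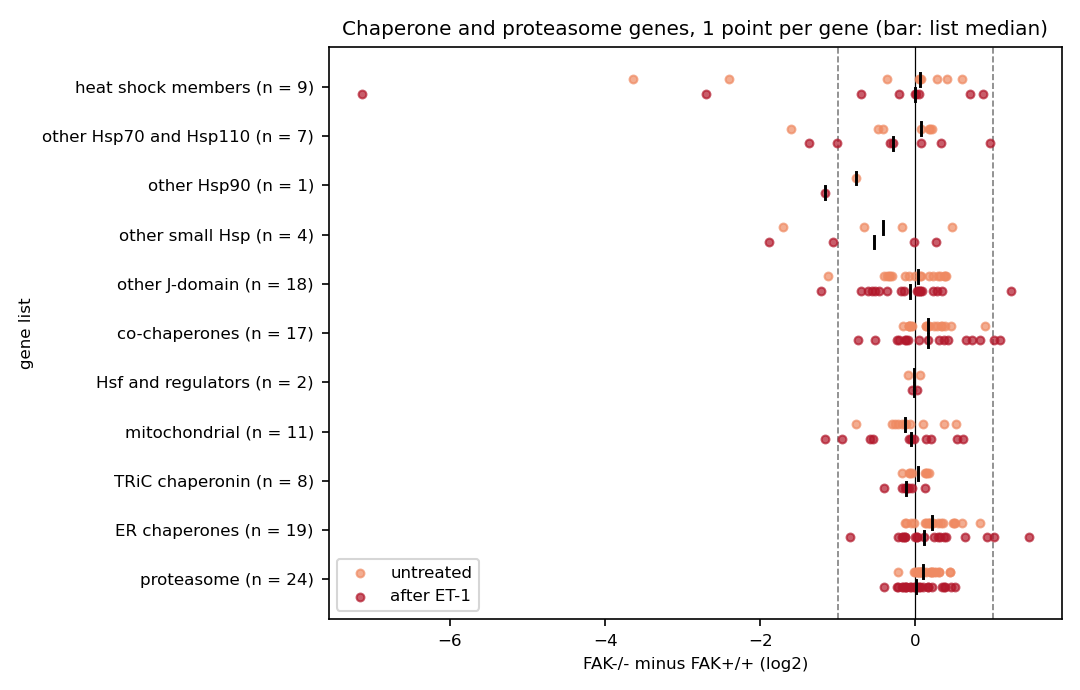
FAK-/- minus FAK+/+ differences (log2, horizontal axis) of the genes of each chaperone list that passed the level filter, 1 point per gene, untreated above and after ET-1 below, with list medians as black bars and 2-fold as dashed lines. Each gene is shown by its brightest probe set. Hspa1b (-3.64 and -7.13) and Hspb8 (-2.40 and -2.70) stand left of all other points, and the TRiC and proteasome points lie within 2-fold.

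Of 9 genes of the oxidant and metal response, 1 rose by limma in FAK-/- cells (Hmox1, heme oxygenase, which is also heat-inducible in rodents, 1.04 ± 0.13, adjusted p = 0.0202) and 1 fell (Srxn1, sulfiredoxin, -0.85 ± 0.14, adjusted p = 0.0341), against 6.59% and 7.03% of all genes. After ET-1 2 of the 9 were at least 2-fold higher in FAK-/- cells (5.61% of all genes), Hmox1 (1.12) and Sqstm1 (1.08). Sqstm1 differed by -0.22 untreated. It read 12.56 in ET-1-treated FAK+/+ cells, the array with the wide 3' to 5' gap, against 13.73 in untreated FAK+/+ cells. The part of the gap was not tested. The median ET-1 difference of this list was -0.38 in FAK-/- cells and -0.44 in FAK+/+ cells, against -0.04 and 0.05 for the 9 heat shock genes.

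The genes whose array profile lay closest to that of Hspa1b were not chaperones. Likeness was the Euclidean distance between values of the 4 arrays, each minus the gene's own mean, over 12289 genes, and it uses the contrast that chose Hspa1b. The nearest 5 were Postn (distance 0.47), a matricellular protein, Thy1 (0.91), a fibroblast surface protein, Matn2 (1.02), a matrix protein, Prkar2b (1.09), a protein kinase A subunit, and Myl9 (1.10), a myosin light chain. Postn read 7.70 in ET-1-treated and 10.98 in untreated FAK-/- cells, against 14.55 in ET-1-treated and 14.09 in untreated FAK+/+ cells. Thy1, which is in the fibroblast marker list, read 6.85 and 8.95 in these FAK-/- arrays, against 13.46 and 13.01 in the FAK+/+ arrays. All 5 had both FAK-/- values below both FAK+/+ values and the lowest value in ET-1-treated FAK-/- cells. Their ET-1 differences were between -3.28 and -1.84 in FAK-/- cells and between 0.19 and 0.53 in FAK+/+ cells. These likenesses restate the choice by profile and are no separate result.

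**Figure D5:**
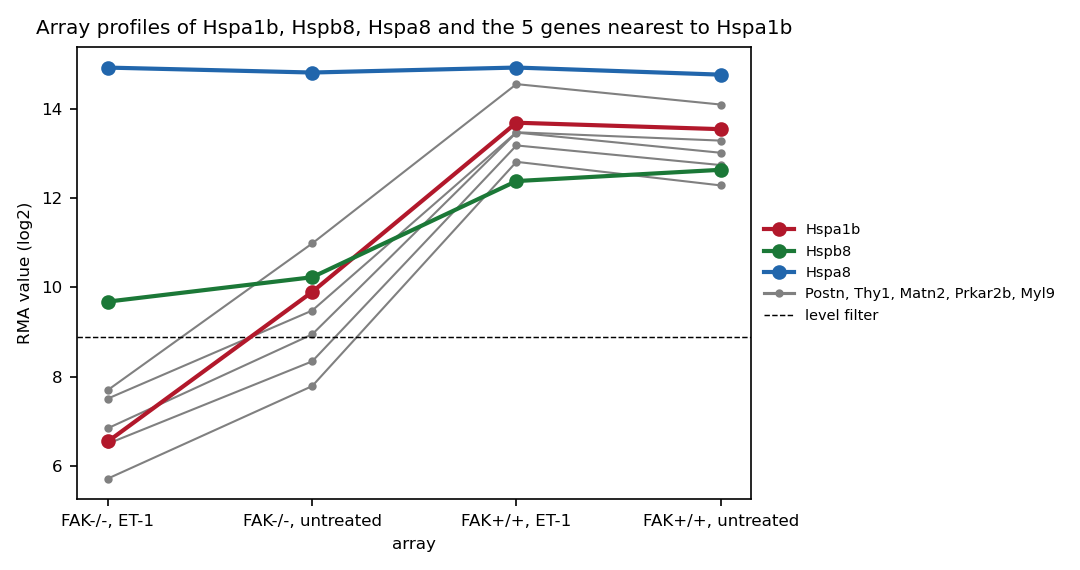
RMA values (log2, vertical axis) in the 4 arrays for Hspa1b, Hspb8 and Hspa8 by their brightest probe sets and, in grey, for the 5 genes nearest to Hspa1b by profile, with the level filter of 8.90 as a dashed line. Hspa1b and the grey genes are lowest in ET-1-treated FAK-/- cells, Hspb8 is lower in both FAK-/- arrays, and Hspa8 stays between 14.76 and 14.92.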

How the data were processed

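The 4 groups of mouse embryonic fibroblasts were each measured on 1 array (total RNA, 100 ng, amplified in a 2-cycle protocol per the labels). The deposited values are on a log2 scale, 1 per probe set and array, made with RMA according to what the submitters' processing notes name; its version is not given in the sources used here. The 45101 probe sets include 64 Affymetrix controls, which were left out of genes and counts, and 0 columns belong to other samples. The values run from 5.00 to 15.24 and were used as deposited. The platform annotation paired 34945 probe sets with 1 gene, 932 with several, and did not list 9211. For each of 18193 genes the brightest probe set by mean over arrays was taken, and 12289 genes with a value above 8.90, the median of all values, were kept.

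Differences between 2 arrays were computed, and genes at 2-fold or more were counted. Genotype was tested in an additive model of genotype and treatment with limma 3.58.1 (lmFit, eBayes with an intensity trend, R 4.3.3), adjusted by Benjamini-Hochberg over 12289 genes at 0.05. The fit was also run on simulated data with equal, independent noise. Those data held no interaction of genotype with treatment, so that run does not vouch for the p-values given here. The fit leaves 1 residual degree of freedom, so p-values measure no variation among cultures, and precision is limited by there being 4 arrays. Tables and figures were made in Python 3.11.15 (pandas 2.3.3, numpy 2.4.6, matplotlib 3.10.9).

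The heat shock genes and all lists were chosen with earlier results of these data known. Named genes are the 10 heat shock genes, up to 4 members with the largest differences of each list with those singled out by name, and the 5 genes nearest to Hspa1b by profile. Alternatives were the mean of all probe sets, no filter, a filter at the 75th percentile, medians subtracted, quantile normalization, subtraction of the lowest linear value with 16 added, 1.5-fold, Hspa1a and Hspa1b averaged, and eBayes without a trend or robust. RefSeq (GRCm38.p6) gave promoter windows and gene order.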

Additional observations from a re-analysis of the deposited data

Results flagged for a closer look

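By the brightest probe sets the ET-1 difference had unlike signs in the 2 genotypes and was at least 2-fold lower in FAK-/- cells for 2 of the 9 genes, where 1.31% of all genes were at least 2-fold lower on that measure whatever their signs. For Hspa1b the FAK-/- minus FAK+/+ value of the ET-1 difference was -3.49 on the log2 scale (-3.35 in FAK-/- cells and 0.14 in FAK+/+ cells, a value close to 0 that does not show an opposite direction), which includes the contrast that chose the genes. For Cryab it was -1.11 by the brightest probe set (-0.47 in FAK-/- cells and 0.64 in FAK+/+ cells) and 0.00 by 1416455_a_at. With 1 array per group neither difference between genotypes was tested.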

How the results depend on the processing

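Of 98 alternative values of the counts and medians, 89 stayed within 1.5 times (counts) or 1.5-fold (medians) of the reported one, and of 654 values for single genes and lists 640 did so or kept their side of the threshold. Counted at 1.5-fold, 2453 genes differed between genotypes untreated, 3101 after ET-1, 1319 after ET-1 in FAK+/+ cells and 286 in FAK-/- cells, against 1151, 1492, 240 and 63 at 2-fold. At 1.5-fold so did 5 heat shock genes after ET-1 between genotypes and 2 after ET-1 in FAK+/+ cells. With the mean of all probe sets 144 genes reached 2-fold after ET-1 in FAK+/+ cells and 40 in FAK-/- cells. Without the level filter 1 heat shock gene, Hspa1a, reached 2-fold after ET-1 in FAK+/+ cells. Hspb1 (adjusted p = 0.0398) and Hspd1 (0.0253) passed limma with the filter at the 75th percentile, and Hspd1 (0.0477) with medians subtracted; the cause was not tested. The mean of probe sets gave -2.76 for the ET-1 difference of Hspa1b in FAK-/- cells. No paired analysis was possible because each group has 1 array. Array signal near the bottom of the range limits the folds of Hspa1a and Hspa1b, and signal near the top those of Hspa8, Hsp90aa1 and Hspd1.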
